A study of Mus musculus with 9 samples.

Results

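Chemokines are small secreted proteins that steer leukocytes, and their receptors are G protein-coupled receptors on the cells that respond. The mouse tibia RNA-seq table holds 62 genes of this family among its 22183 genes: every gene whose symbol starts with Ccl, Cxcl, Ccr, Cxcr or Ackr and a number, together with Cx3cl1, Cx3cr1, Xcl1, Xcr1 and Ccrl2. They comprise 38 ligands (24 of the CC class, 12 of the CXC class and 2 others), 19 signalling receptors and 5 atypical receptors, which bind chemokines without activating G proteins. The choice rested on names and not on measured values, though it was made with earlier results of these data known. Tibiae of 3 groups were compared, with 3 libraries in each: Ti+I-OG tibiae received titanium particles and an injectable natural-polymer hydrogel loaded with irisin, a peptide hormone of muscle, and were taken after 5 weeks of hydrogel treatment. Ti tibiae received titanium particles alone, a model of the wear debris that loosens implants without infection. Naive tibiae had no treatment. Ti tibiae differed from naive ones in the procedure as well as in the particles, and the labels give no time for either group, no strain, sex or age, and no hydrogel without irisin. Separate animals are not stated for the libraries of a group; p-values therefore measure the spread between these libraries, which may be technical.

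CC and CXC ligands are named for the spacing of their first cysteines, and many bind several receptors. Inflammatory ligands such as those of Ccr2 and Cxcr2 draw monocytes and neutrophils out of blood and marrow, whereas homeostatic ligands keep cells in place or guide them through lymphoid tissue. In marrow, Cxcl12 from stromal cells holds blood stem cells and neutrophils through Cxcr4, and ligands of Cxcr2 draw mature neutrophils out. Some atypical receptors take up chemokines for degradation: Ackr3 removes Cxcl12, and Ackr4 removes the Ccr7 ligands Ccl19 and Ccl21 and the Ccr9 ligand Ccl25.

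The first sequences shown are those of Ccl21, the family's largest difference between groups, because its gene copies can scarcely be told apart by their reads. GENCODE mouse release 21 gives both Ccl21a and Ccl21b a coding sequence of 402 bases on chromosome 4, with 2 differences between them. Ccl21d, Gm10591 and Gm13304 have the same coding sequence as Ccl21b. Bases 54 to 224 of the coding sequence follow, 5′ to 3′, with the differing bases in capitals:
Ccl21a: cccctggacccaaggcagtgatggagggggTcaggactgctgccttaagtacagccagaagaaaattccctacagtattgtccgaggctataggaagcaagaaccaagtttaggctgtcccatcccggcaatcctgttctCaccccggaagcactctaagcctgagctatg
Ccl21b: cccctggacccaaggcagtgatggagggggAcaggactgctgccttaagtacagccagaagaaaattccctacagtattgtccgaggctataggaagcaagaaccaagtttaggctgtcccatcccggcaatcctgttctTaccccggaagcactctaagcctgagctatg

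Promoters of 4 members are shown because they lie before genes that the results turn on: Ackr3, Ccl8 and Cxcr2 passed the test in at least 1 comparison, and Cxcl2 is an inflammatory ligand of Cxcr2. Each is the 250 bases before the start site in RefSeq (build GRCm38.p6, plus strand): chr1:90203730-90203979 for Ackr3, chr11:82114935-82115184 for Ccl8, chr1:74153744-74153993 for Cxcr2 and chr5:90903649-90903898 for Cxcl2. Capitals mark matches on either strand to 3 motifs: the TATA box core, the core shared by sites of the myeloid factor PU.1, and the NF-kB consensus:
Ackr3: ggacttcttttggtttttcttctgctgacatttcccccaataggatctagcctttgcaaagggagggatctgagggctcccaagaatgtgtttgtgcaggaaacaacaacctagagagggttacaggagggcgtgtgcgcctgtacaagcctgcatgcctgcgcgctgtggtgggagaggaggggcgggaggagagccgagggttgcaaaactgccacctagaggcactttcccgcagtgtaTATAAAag
Ccl8: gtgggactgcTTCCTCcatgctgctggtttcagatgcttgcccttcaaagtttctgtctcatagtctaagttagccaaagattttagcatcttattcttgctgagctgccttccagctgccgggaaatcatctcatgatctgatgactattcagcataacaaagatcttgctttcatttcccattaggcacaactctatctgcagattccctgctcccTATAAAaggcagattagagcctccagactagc
Cxcr2: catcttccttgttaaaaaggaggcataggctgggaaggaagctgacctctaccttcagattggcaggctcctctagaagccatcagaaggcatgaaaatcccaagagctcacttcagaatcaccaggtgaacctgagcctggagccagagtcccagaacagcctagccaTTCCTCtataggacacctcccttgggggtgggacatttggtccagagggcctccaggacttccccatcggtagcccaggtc
Cxcl2: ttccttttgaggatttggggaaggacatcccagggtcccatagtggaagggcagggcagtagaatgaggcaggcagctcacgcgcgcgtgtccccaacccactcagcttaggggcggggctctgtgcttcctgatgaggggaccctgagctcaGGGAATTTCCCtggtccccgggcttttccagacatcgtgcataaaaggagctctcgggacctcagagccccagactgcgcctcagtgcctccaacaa

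The capitals in Cxcl2 cover 2 overlapping matches of the NF-kB consensus, and no match of one motif overlapped another motif in these 4 windows. RefSeq promoters were found for 48 of the 62 members, 57 promoters in all. The NF-kB consensus was in 17.5% of them, against 3.90% of all 32851 promoters of that length, and the members that had it were Ccl9, Ccl20, Cxcl1, Cxcl2, Cxcl3, Cxcl10, Ccr3, Ccr6, Ackr2 and Ccrl2. The TATA box core, searched as TATAAA, was in 26.3% of the members' promoters, against 12.4% of all promoters of that length. The PU.1 core, searched as GAGGAA, was in 29.8% of the members' promoters, against 23.3% of all. A match describes these letters only.

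Total counts were 16256081 to 24766502 per library. Naive replicate 3 had the lowest score of the 9 libraries on the first principal component of all genes, and it also had the lowest Cxcl12 and Ccl6 of the 9, so calls against naive are given with and without it. The makeup of the tissue also differed. The summed CPM (counts scaled to library depth after TMM normalisation) of 13 osteoblast and osteocyte markers were 6182 to 7452 in Ti+I-OG, 8659 to 10580 in Ti and 2081 to 4742 in naive libraries. Those of 12 tendon and fibroblast markers were 1035 to 1940, 1414 to 3059 and 272.7 to 674 in the same groups. Those of 10 erythroid markers, globins among them, were 169900 to 184600 in Ti+I-OG, 70900 to 103600 in Ti and 30340 to 97490 in naive libraries. The part of erythroid RNA in the members' values was not tested beyond leaving out globin and mitochondrial genes, which gave 5 called members in Ti vs naive, 0 in Ti+I-OG vs Ti and 7 in Ti+I-OG vs naive. As whole tibiae were sequenced, fewer cells of a type and less RNA per cell cannot be told apart in any of the values below.

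Of the 62 members, 47 had enough counts to be tested: 26 ligands, 16 receptors and all 5 atypical receptors. Ccl26 had no count in any library, and the other 14 untested members had at most 77 counts over the 9 libraries. Among these were Cxcl1 with 16 counts and Cxcl3 with 30, both neutrophil-attracting ligands of Cxcr2. Levels of different genes were compared as FPKM, fragment counts scaled to transcript length and library depth, as the authors deposited them. Averaged over the 9 libraries, 3 members were above 100 FPKM, 9 lay from 10 to 100, 24 from 1 to 10, and 26 at or below 1.

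**Figure D1:**
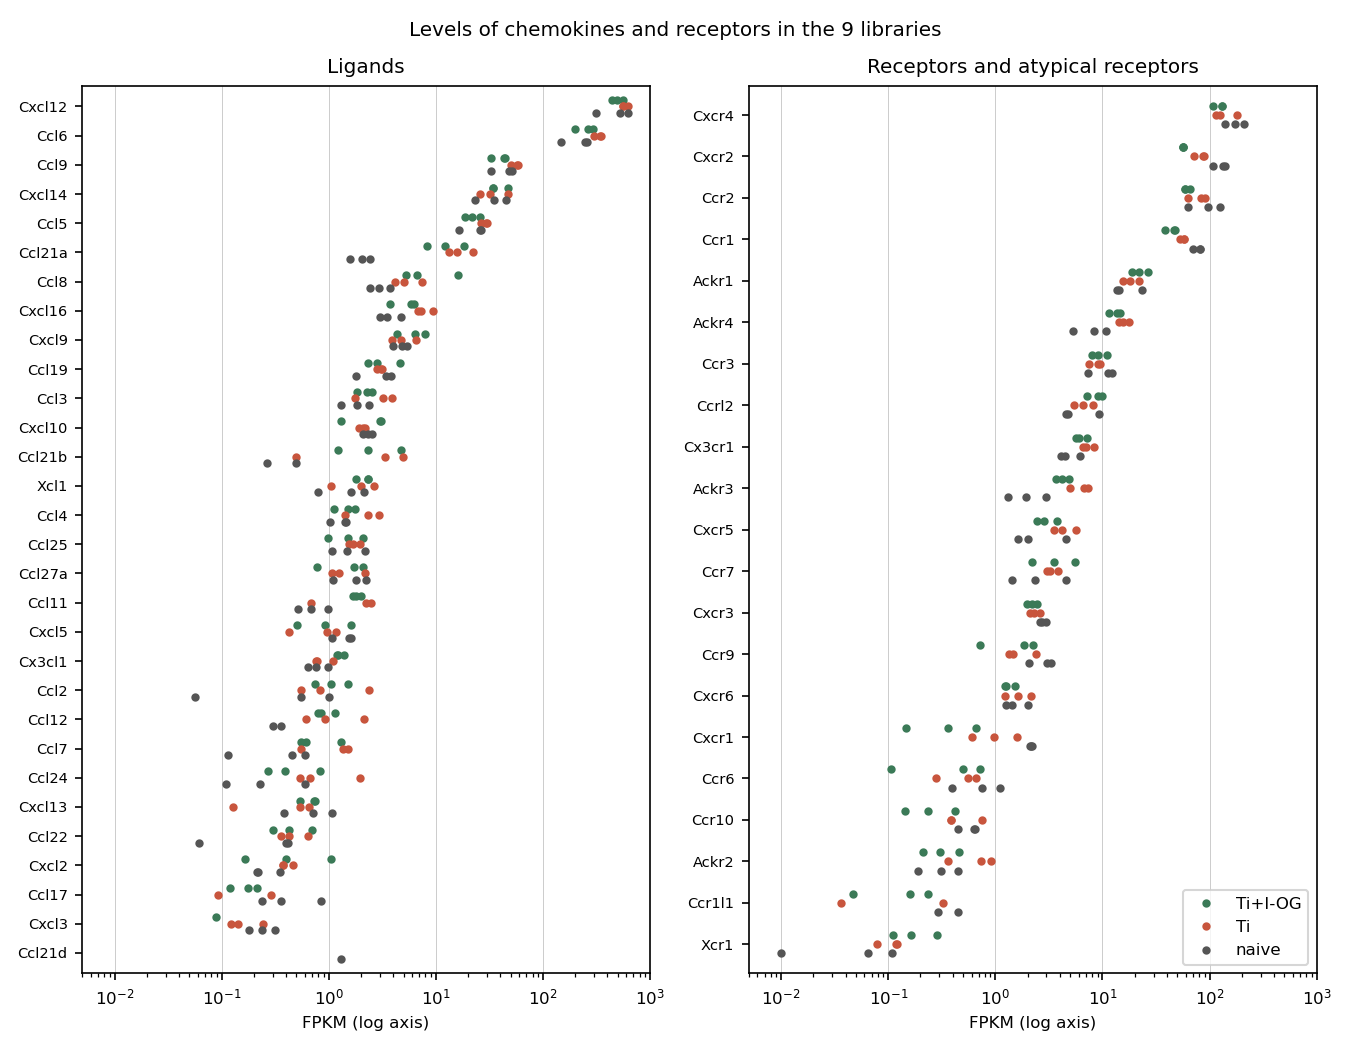
FPKM of the chemokines (left) and receptors (right) shown, with a mean of at least 0.1 FPKM, on a log axis, with a point for each library of the Ti+I-OG, Ti and naive groups and values of 0 left out. Cxcl12 and Ccl6 stand above the other ligands, and Cxcr4, Cxcr2, Ccr2 and Ccr1 above the other receptors, in all 3 groups.

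Cxcl12 was the most abundant ligand, with 49.7% to 61.0% of the summed FPKM of all ligands in a library. It measured 489, 444 and 561 FPKM in Ti+I-OG, 619, 555 and 561 FPKM in Ti and 520.1, 624 and 315 FPKM in naive libraries. Groups overlapped, and Cxcl12 did not pass in any comparison (log2 fold change 0.26, SE 0.22, in Ti vs naive). Ccl6, a myeloid chemokine that binds Ccr1, came next with 21.7% to 32.7% of ligand FPKM. It measured 265, 293 and 199.7 FPKM in Ti+I-OG, 344, 347 and 303 FPKM in Ti and 245, 256 and 148 FPKM in naive libraries. All Ti libraries lay above all Ti+I-OG and naive ones in Ccl6 as FPKM (as normalised counts, only above the naive ones). Yet the difference from naive did not pass in the main edgeR fit (log2 fold change 0.68, SE 0.23, adjusted p = 0.0926). It passed in DESeq2 and in edgeR with the replicate numbers as a block.

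Ccl9, Cxcl14 and Ccl5 followed. Ccl9, another Ccr1 ligand that osteoclasts are known to make, measured 44.7, 43.1 and 33.0 FPKM in Ti+I-OG, 57.2, 59.1 and 50.1 FPKM in Ti and 51.4, 32.6 and 48.1 FPKM in naive libraries. Its Ti+I-OG libraries lay below all Ti libraries, but the difference did not pass (log2 fold change -0.33, SE 0.19, adjusted p = 0.659). Cxcl14, a homeostatic ligand of epithelium and stroma, measured 34.5, 34.1 and 47.4 FPKM in Ti+I-OG, 25.8, 32.0 and 47.6 FPKM in Ti and 35.3, 45.3 and 23.3 FPKM in naive libraries, with all groups overlapping. Ccl5, a Ccr1 ligand made by T cells and platelets, measured 18.6, 21.7 and 25.8 FPKM in Ti+I-OG, 30.1, 26.3 and 29.3 FPKM in Ti and 26.1, 26.5 and 16.5 FPKM in naive libraries. Its Ti and naive libraries overlapped slightly as FPKM and not as normalised counts, its Ti+I-OG and Ti libraries as normalised counts and not as FPKM, and neither gene passed in any comparison.

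Cxcr4, Cxcr2, Ccr2 and Ccr1 together held 77.3% to 91.2% of the summed FPKM of receptors and atypical receptors. Cxcr4 measured 108, 131 and 131 FPKM in Ti+I-OG, 126, 115 and 180.4 FPKM in Ti and 139, 172 and 208 FPKM in naive libraries. Ccr2, the receptor by which inflammatory monocytes leave the marrow, measured 66.4, 59.6 and 58.7 FPKM in Ti+I-OG, 83.9, 91.6 and 62.4 FPKM in Ti and 126, 63.1 and 97.4 FPKM in naive libraries. The Ti+I-OG libraries lay below all naive ones in Cxcr4 as FPKM, but overlapped them as normalised counts; the other ranges of both receptors overlapped. Neither passed in any comparison in the main edgeR fit. Cxcr4 passed in Ti+I-OG vs naive in an edgeR fit with the replicate numbers as a block and an offset for transcript length (adjusted p = 0.0312). Ackr1, the Duffy antigen of red cells and venules, was the most abundant atypical receptor, with 18.8, 22.2 and 26.6 FPKM in Ti+I-OG, 18.0, 15.6 and 21.8 FPKM in Ti and 14.2, 23.3 and 13.8 FPKM in naive libraries. Ackr1 shares exon bases with Cadm3 on the same strand, so its values are uncertain, and it passed in no comparison.

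The first comparison set titanium particles against no treatment. Of the 47 members, 6 passed at an adjusted p under 0.05 (12.8%, against 6.43% of all 14211 genes tested). Ccl21a, Ccl21b, Ackr3, Ackr4 and Cx3cr1 rose in Ti tibiae, 5 members against 4.05% of all genes, and Cxcr2 fell, 1 member against 2.39% of all genes. Ccl21a and Ccl21b are near-identical copies, so they are not separate evidence. With the Ccl21 copies summed, a setting chosen after seeing the data, 5 of 46 members passed, against 6.4% of all genes. Of these, 4 were higher and 1 lower. Under upper-quartile scaling, which put the median log2 fold change of all genes at 0.10 in place of 0.01, the split was 5 higher and 0 lower. For 16 members all Ti libraries lay on one side of all naive ones (34.0%, against 27.2% of all genes): 13 were higher in every Ti library (14.3% of all genes were) and 3 were lower (12.9% of all genes were). At an unadjusted p under 0.05 there were 13 members (27.7%, against 26.9% of all genes). Fold changes were positive for 33 of the 47 (70.2%, against 50.7% of all genes).

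**Figure D2:**
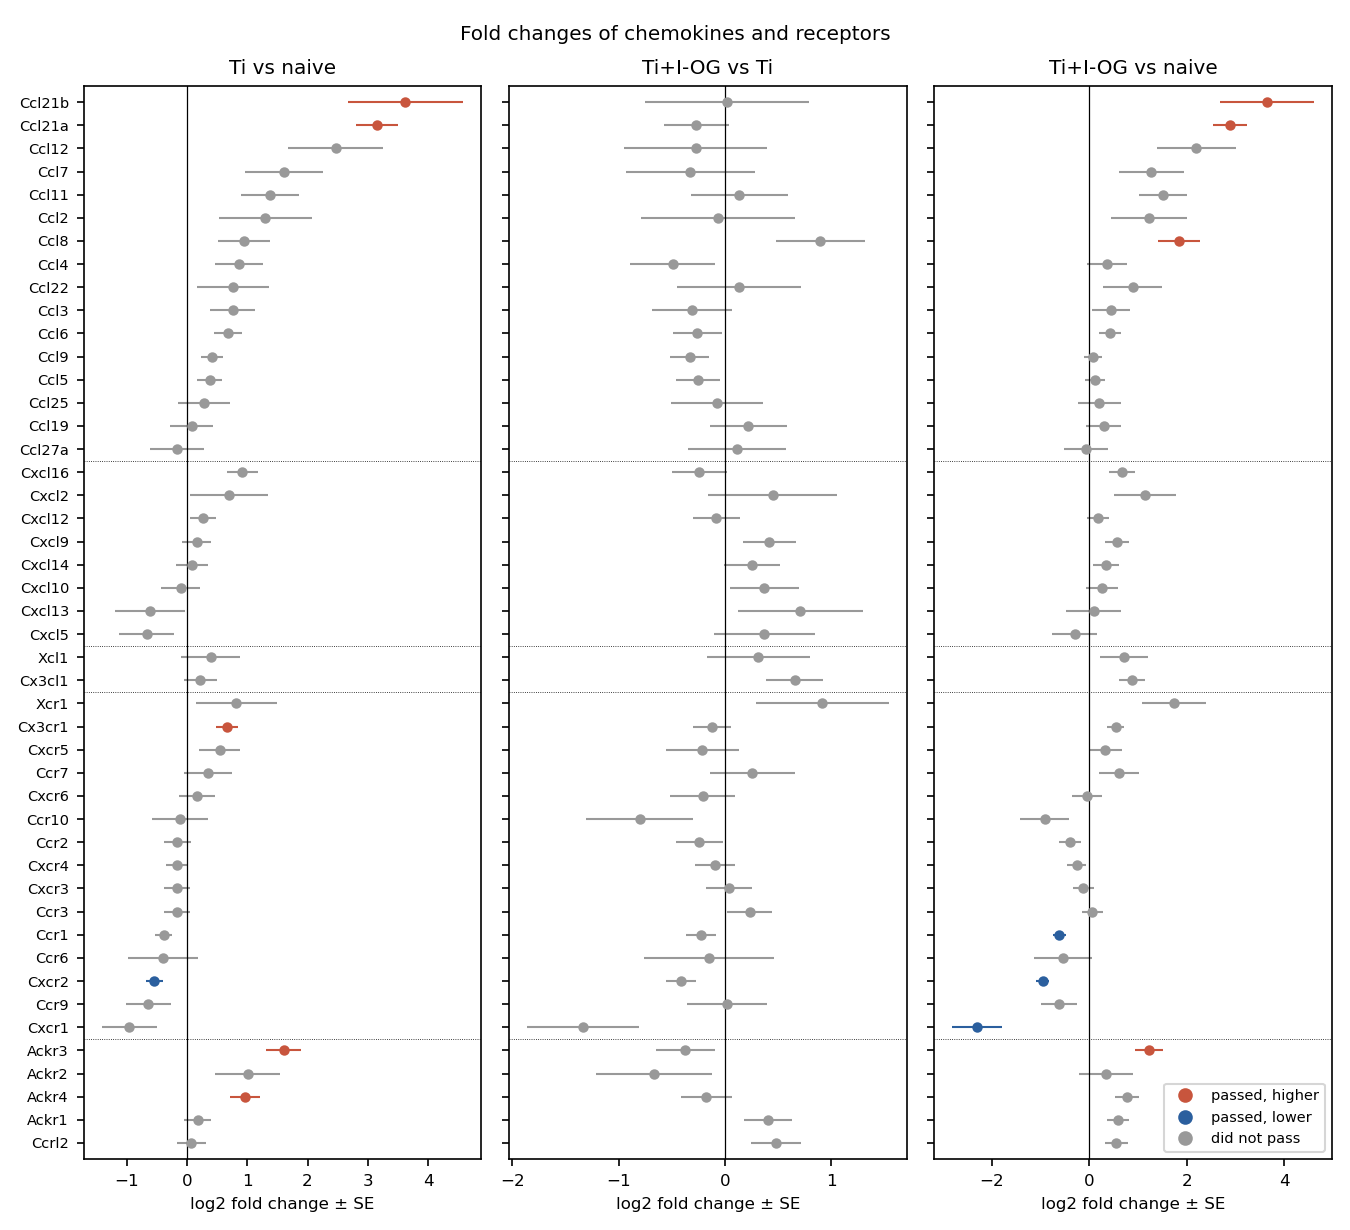
Log2 fold change with its standard error for 46 of the 47 tested members, ordered by class (CC, CXC and other ligands, receptors, atypical receptors, divided by dotted lines), in 3 panels, 1 for each comparison, where positive is higher in the group named first. Red and blue mark members that passed; no member passed in Ti+I-OG vs Ti.

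Most CC ligands had positive fold changes: 15 of 16 tested in Ti vs naive, with a median log2 fold change of 0.81, against 0.01 over all genes tested. Of these, 2 passed, Ccl21a and Ccl21b. Short transcripts tended to have higher fold changes in these data (Spearman rho of fold change on length across genes -0.24 in Ti vs naive, -0.33 in Ti+I-OG vs Ti and -0.40 in Ti+I-OG vs naive), and the tested members' median length was 1726 bases, against 2715 for all genes. With an offset for length the CC median was 0.60, with 14 of 16 positive, and without naive replicate 3 it was 0.66, with 15 of 16 positive.

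Ccl21a, a Ccr7 ligand of lymphoid stroma that guides dendritic cells and T cells, rose in Ti tibiae. It measured 11.7, 17.9 and 7.37 CPM in Ti+I-OG, 13.6, 19.3 and 11.4 CPM in Ti and 2.01, 1.68 and 1.26 CPM in naive libraries. Every library given particles, with or without hydrogel, lay above every naive one. In Ti vs naive the log2 fold change was 3.16 (SE 0.35, adjusted p = 0.00212), an 8.92-fold rise with a 95% interval of 2.40 to 3.91 on the log2 scale. It passed in all 14 other settings and without each of the 6 libraries in turn (adjusted p = 0.00651 without naive replicate 3).

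Ccl21b measured 2.18, 4.53 and 1.08 CPM in Ti+I-OG, 2.93, 4.21 and 0.441 CPM in Ti and 0, 0.420 and 0.209 CPM in naive libraries, with 14 counts in all naive libraries together. Its log2 fold change of 3.62 in Ti vs naive (SE 0.96, adjusted p = 0.0465) no longer passed in 5 of 13 other settings, nor without naive replicate 1 or 3, Ti replicate 1 or Ti replicate 2 (adjusted p up to 0.181; 0.129 without naive replicate 3). Gm10591, whose coding sequence is identical to it, had the same count in every library, 129 over Ti+I-OG, 173 over Ti and 14 over naive libraries for each gene, so that these reads cannot be assigned to either gene. Ccl21d had 28 counts in naive replicate 1 and none elsewhere. Summed over the 5 near-identical genes, as chosen after seeing the data, the level was 16.02, 26.99 and 9.52 CPM in Ti+I-OG, 19.4, 27.8 and 13.9 CPM in Ti and 3.08, 2.99 and 1.68 CPM in naive libraries. The summed log2 fold change was 2.98 in Ti vs naive (SE 0.40, adjusted p = 0.00342).

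**Figure D3:**
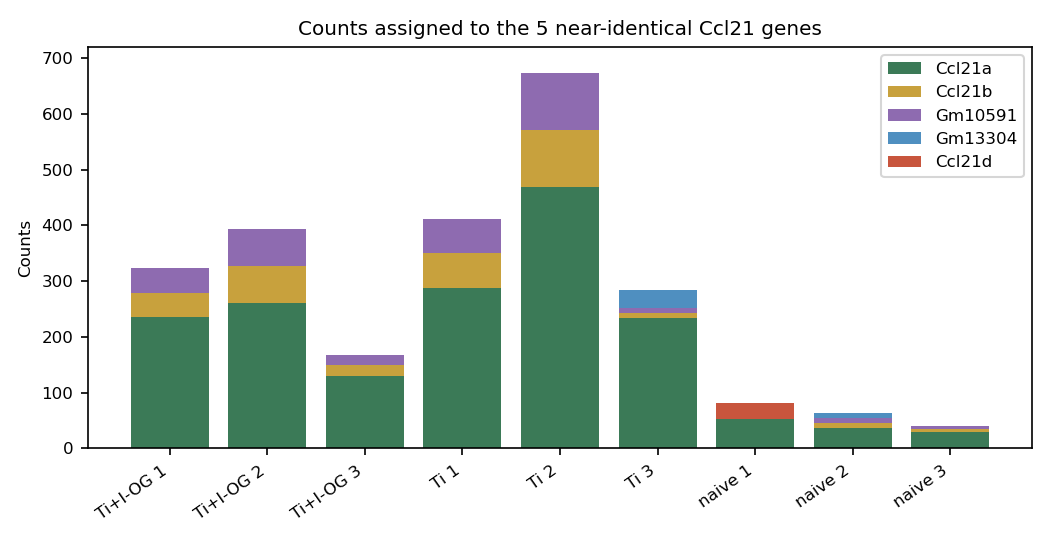
Counts assigned to Ccl21a, Ccl21b, Gm10591, Gm13304 and Ccl21d in each library, stacked in the order Ti+I-OG, Ti and naive. The sums are 168 to 393 in Ti+I-OG, 284 to 673 in Ti and 40 to 81 in naive libraries, and Ccl21a holds the largest share in each library.

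Markers of the tissues known to make Ccl21 did not all move with it. Of 7 lymphatic endothelial markers, 6 were tested and 3 rose in Ti tibiae, against 4.05% of all genes. These were Ccl21a itself, Pdpn (log2 fold change 2.02, adjusted p = 0.0184) and Lyve1 (1.22, adjusted p = 0.0228). Flt4, Reln and Mmrn1 had negative log2 fold changes (-0.31, -0.22 and -0.44) without passing. The summed CPM of all 7 markers, Ccl21a included, overlapped, with 93.2 to 120.3 in Ti and 98.6 to 140.8 in naive libraries. Mmrn1 had the highest CPM of the 6 tested in each of these libraries. It measured 67.5, 35.8 and 73.1 CPM in Ti and 73.3, 63.5 and 101.9 CPM in naive libraries, so the sum depends much on this gene. Of 7 lymph node stromal markers in the table, 4 were tested, Chst4 had no count, and Ccl21a was the one that rose. Their sums, which include Ccl21a itself, were 16.8 to 28 CPM in Ti and 5.70 to 11.1 CPM in naive libraries. The part of these cells in the rise of Ccl21a was not tested. Ccl19, the other Ccr7 ligand, measured 1.88, 2.33 and 3.57 CPM in Ti+I-OG, 2.08, 2.35 and 2.25 CPM in Ti and 1.25, 2.75 and 2.35 CPM in naive libraries, which overlapped (log2 fold change 0.08, SE 0.36, in Ti vs naive). For Ccr7 itself the log2 fold change was 0.36 (SE 0.40, adjusted p = 0.592). Dendritic cells carry Ccr7 when mature. The summed CPM of 10 dendritic cell markers, Ccr7 itself among them, was 293 to 366 in Ti and 192 to 337 in naive libraries.

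On chromosome 11, the genes Ccl2, Ccl7, Ccl11, Ccl12 and Ccl8 lie next to each other. They encode monocyte- and eosinophil-attracting ligands, and each had a positive log2 fold change in Ti vs naive, from 0.95 for Ccl8 to 2.47 for Ccl12, but none passed. Ccl12, a Ccr2 ligand of the mouse, measured 0.496, 0.481 and 0.623 CPM in Ti+I-OG, 1.13, 0.330 and 0.490 CPM in Ti and 0.152, 0.187 and 0 CPM in naive libraries. Its Ti and naive libraries did not overlap, on 42 counts over the Ti and 8 over the naive libraries (SE 0.79, adjusted p = 0.0789). Ccl2, the chief ligand of Ccr2, overlapped between groups, with 0.661, 1.94 and 0.441 CPM in Ti and 0.418, 0.794 and 0.0419 CPM in naive libraries. The 95% interval of its log2 fold change ran from -0.37 to 2.97, which spans 0.

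No CXC ligand passed in Ti vs naive; of the 8 tested, 5 had positive and 3 negative fold changes, with a median of 0.13 that turned to -0.06 without naive replicate 3. Cxcl16, a membrane-bound ligand of Cxcr6 on macrophages and dendritic cells, came nearest. It measured 13.7, 9.13 and 15.3 CPM in Ti+I-OG, 14.8, 18.9 and 11.5 CPM in Ti and 7.03, 10.6 and 6.28 CPM in naive libraries, so that the Ti and naive libraries did not overlap. Its log2 fold change was 0.92 (SE 0.26, adjusted p = 0.0583), and it passed in 6 of 14 other settings. Cxcl16 shares exon bases with Zmynd15 on the opposite strand, and the library kit does not mark strand. Its receptor Cxcr6 had a log2 fold change of 0.17 (SE 0.30).

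Members with the NF-kB consensus in their promoter included Cxcl2, which measured 1.34, 0.206 and 0.453 CPM in Ti+I-OG, 0.567, 0.454 and 0.490 CPM in Ti and 0.266, 0.280 and 0.377 CPM in naive libraries. All Ti libraries lay above the naive ones in Cxcl2, at very low counts, and the difference did not pass (log2 fold change 0.70, SE 0.64, adjusted p = 0.505). Cxcl10, the interferon-induced ligand of Cxcr3, had a log2 fold change of -0.10 (SE 0.33), and Ccr3, the eosinophil receptor, of -0.17 (SE 0.21). The other tested members with the consensus were Ackr2 (log2 fold change 1.01), Ccl9 (0.41), Ccrl2 (0.08) and Ccr6 (-0.39). None of these passed in Ti vs naive, and Ccl20, Cxcl1 and Cxcl3 were not tested. Of 12 mast cell, eosinophil and basophil markers, the mast cell proteases Mcpt4, Cma1 and Tpsb2 rose in Ti vs naive, against 4.05% of all genes. The eosinophil peroxidase Epx fell, against 2.39% of all genes. The part of these cells in the values of Ccr3 was not tested. Of 20 other inflammatory genes induced by NF-kB, 19 were tested and 1 passed in Ti vs naive, against 6.43% of all genes. It was Acod1, the itaconate-making enzyme of activated macrophages, which fell by 1.78 on the log2 scale (adjusted p = 0.00166). The list's median log2 fold change was -0.31, with 3 of 19 positive, against 0.01 over all genes. In Ti+I-OG vs naive 2 of the 19 fell, Acod1 and Birc3, against 4.43% of all genes. The list's median there was -0.15, with 5 of 19 positive, against 0.03 over all genes.

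Among the 16 tested receptors, 6 had positive and 10 negative fold changes in Ti vs naive, with a median of -0.16, and 1 passed in each direction. Cxcr2, the neutrophil receptor for Cxcl1, Cxcl2, Cxcl3 and Cxcl5, measured 189, 192 and 178 CPM in Ti+I-OG, 263, 215 and 268 CPM in Ti and 386, 314 and 384 CPM in naive libraries. The groups did not overlap, with Ti+I-OG lowest and naive highest. In Ti vs naive it fell by 0.54 on the log2 scale (SE 0.14, adjusted p = 0.0447), a value close to the threshold. It no longer passed under upper-quartile scaling, in a fit of these groups alone, or when naive replicate 1 or 3, or Ti replicate 1 or 2, was left out (adjusted p reaching 0.183, and 0.127 without naive replicate 3).

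Cxcr1, the next gene on chromosome 1 and another neutrophil receptor, measured 0.446, 0.824 and 0.170 CPM in Ti+I-OG, 0.755, 1.07 and 1.76 CPM in Ti and 2.32, 2.38 and 2.26 CPM in naive libraries. Its Ti libraries lay below the naive ones, but the difference did not pass (log2 fold change -0.95, SE 0.46; adjusted p = 0.205). Ccr1, the receptor for Ccl3, Ccl5, Ccl6 and Ccl9 on neutrophils, monocytes and osteoclast precursors, measured 145, 150.4 and 110.2 CPM in Ti+I-OG, 162, 149 and 163 CPM in Ti and 217, 192 and 209 CPM in naive libraries. All Ti libraries were lower here too, and again without passing (log2 fold change -0.38, SE 0.14, adjusted p = 0.114).

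Neutrophil markers were read beside Cxcr2. Of 16 neutrophil genes, all with counts, 2 fell in Ti vs naive, the granule proteases Prtn3 and Ctsg, against 2.39% of all genes. None rose. The median log2 fold change of the 16 was -0.19, with 6 positive, against 0.01 over all genes. Their summed CPM was 36490 to 47470 in Ti and 42160 to 55010 in naive libraries. S100a9, with 11360 to 14860 CPM in Ti and 10340 to 16930 CPM in naive libraries, weighs much in this sum, as do S100a8 and Ngp. Their log2 fold changes in Ti vs naive were -0.06, 0.02 and -0.25. Those of Csf3r, Elane and Mpo were -0.34, -0.73 and -0.90, and none of these genes passed. Relative to that sum, Cxcr2 was 4.12 to 5.65 CPM per 1000 CPM of markers in Ti+I-OG, 5.54 to 5.90 in Ti and 7.01 to 7.88 in naive libraries. Relative to Csf3r, the receptor of the neutrophil growth factor, the ratio of CPM was 0.723 to 0.813 in Ti+I-OG, 0.747 to 1.01 in Ti and 0.922 to 1.02 in naive libraries, so that the Ti and naive ranges overlapped. The part of neutrophil content or maturity in the values of Cxcr2 was not tested.

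**Figure D4:**
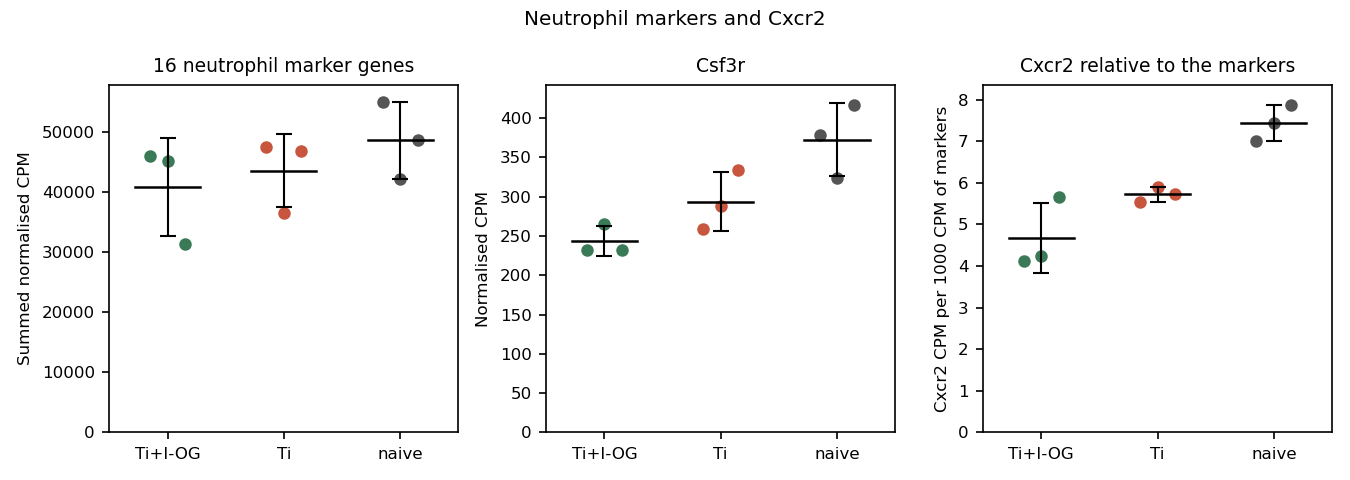
Summed normalised CPM of 16 neutrophil markers (left), normalised CPM of Csf3r (middle) and Cxcr2 CPM per 1000 CPM of those markers (right) in the Ti+I-OG, Ti and naive libraries, with the mean and SD of 3 libraries. The marker sums overlap between groups, and the Cxcr2 ratio is 7.01 or more in naive libraries and 5.90 or less in the others. Both the sum and the ratio depend much on S100a8, S100a9 and Ngp. Csf3r is 232.3 to 265.3 CPM in Ti+I-OG, 259.4 to 334 CPM in Ti and 323.6 to 416.5 CPM in naive libraries. The ratio of Cxcr2 to Csf3r, not drawn, overlaps between Ti and naive libraries.

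Cx3cr1, the receptor of membrane-bound Cx3cl1 on monocytes, macrophages and osteoclast precursors, rose in Ti tibiae. It measured 22.7, 21.7 and 24.8 CPM in Ti+I-OG, 24.6, 28.2 and 22.5 CPM in Ti and 20.1, 14.2 and 13.1 CPM in naive libraries, without overlap between Ti and naive. Its log2 fold change of 0.67 (SE 0.18, adjusted p = 0.0468) no longer passed in 5 of 14 other settings or when naive replicate 2 or 3, or Ti replicate 1 or 2, was left out (adjusted p reaching 0.204, and 0.160 without naive replicate 3). A predicted gene, Gm33858, shares exon bases with it on the opposite strand. The summed CPM of monocyte and macrophage markers was 9463 to 10640 in Ti and 6894 to 8364 in naive libraries. Of the 16 genes Cd68 and Trem2 rose, against 4.05% of all genes, and Cd163 fell, against 2.39% of all genes. The part of these cells in the value of Cx3cr1 was not tested.

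The 5 atypical receptors all had positive fold changes in Ti vs naive, with a median of 0.96, and 2 passed; with the length offset 3 of 5 were positive, and without naive replicate 3, 4 of 5. Ackr3, the scavenger of Cxcl12, measured 14.0, 16.7 and 11.7 CPM in Ti+I-OG, 17.2, 22.5 and 15.04 CPM in Ti and 5.62, 8.78 and 3.65 CPM in naive libraries. All libraries given particles lay above all naive ones. The rise in Ti was 3.05-fold (log2 fold change 1.61, SE 0.29, adjusted p = 0.0133), it passed in all 14 other settings and without naive replicate 3 (adjusted p = 0.0300), and it was lost when Ti replicate 1 or 2 was left out, with an adjusted p reaching 0.0650. Its ligand Cxcl12 and the signalling receptor for that ligand, Cxcr4, did not pass beside it.

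Ackr4, the scavenger of Ccl19, Ccl21 and Ccl25, measured 30.7, 28.1 and 22.4 CPM in Ti+I-OG, 31.2, 27.2 and 33.5 CPM in Ti and 16.1, 21.5 and 9.64 CPM in naive libraries. It rose 1.95-fold in Ti (log2 fold change 0.96, SE 0.24, adjusted p = 0.0407), with no overlap between Ti and naive. The call did not hold in a fit of these groups alone, with the length offset, or without naive replicate 1 or 3 or any 1 Ti library (adjusted p up to 0.132; 0.0894 without naive replicate 3). Ackr4 shares 479 exon bases with Acad11 on the opposite strand, so that its counts are uncertain; for Acad11 itself the log2 fold change was 0.17 (SE 0.16, adjusted p = 0.527). Beside both receptors, markers of tendon and fibroblasts (10 of 12 rose) and of osteoblasts and osteocytes (9 of 13 rose) were higher in Ti. Of all genes, 4.05% rose in Ti vs naive. The part of these cells was not tested.

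**Figure D5:**
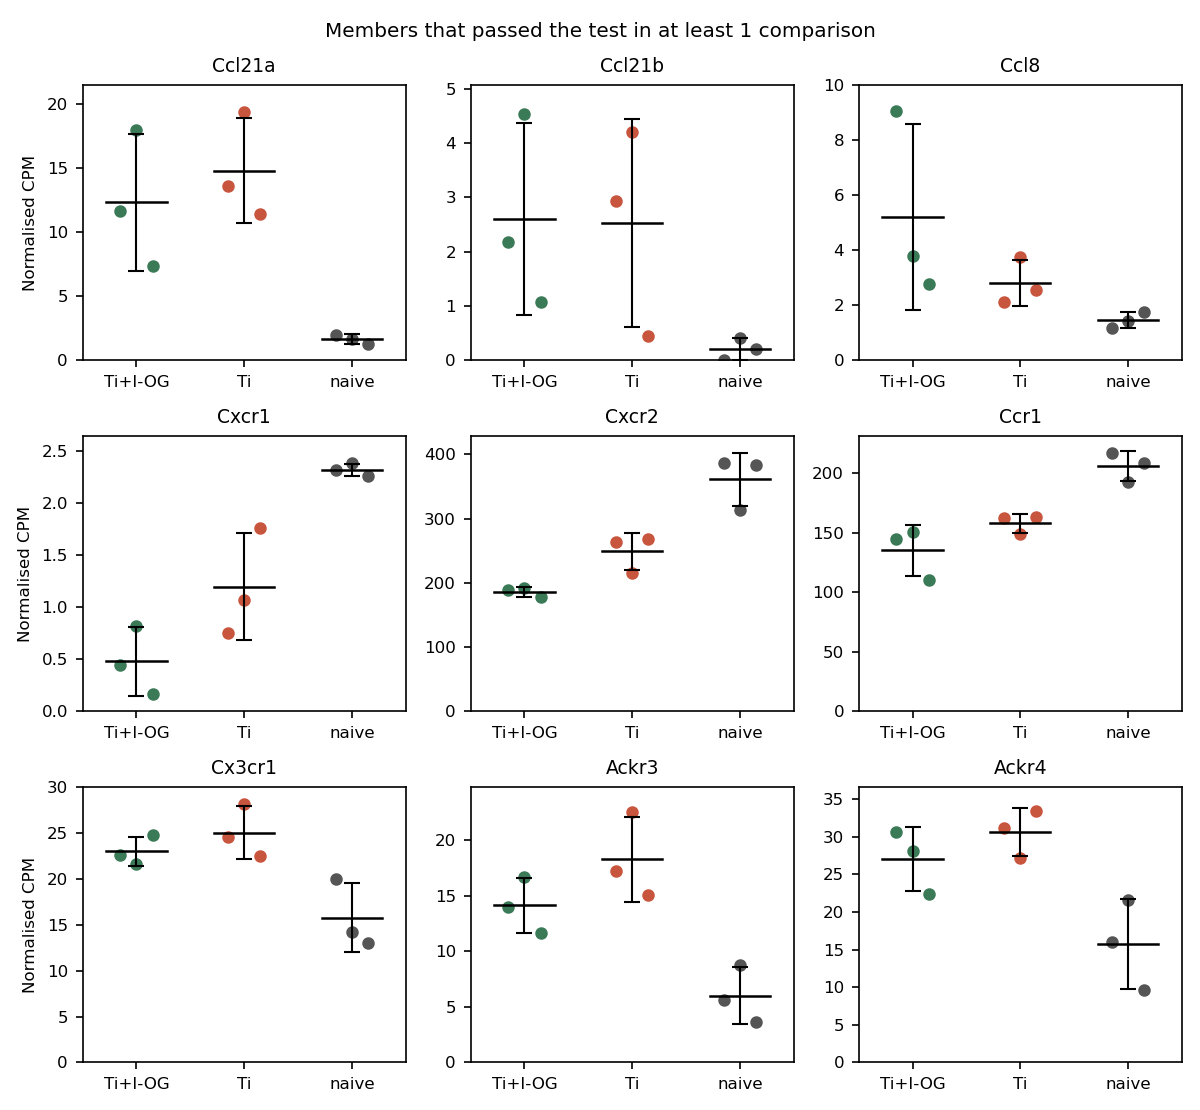
Normalised CPM of the 9 members that passed in at least 1 comparison, with a point for each Ti+I-OG, Ti and naive library and the mean and SD of 3 libraries. Ccl21a and Ackr3 are higher in every library given particles than in every naive one, and Cxcr2 is highest in naive, lower in Ti and lowest in Ti+I-OG libraries.

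The second comparison asked what the hydrogel added to the particles. No member passed in Ti+I-OG vs Ti in edgeR, nor in DESeq2, limma-voom or limma on FPKM, against 0.0422% of all genes in edgeR. An unadjusted p under 0.05 was reached by 3 members (6.38%, against 7.84% of all genes): Cx3cl1 above Ti (4.19% of all genes were) and Cxcr2 and Cxcr1 below it (3.65% of all genes were). Separate ranges were seen for 5 members (10.6%, against 14.5% of all genes). Ccrl2, Cx3cl1 and Xcr1 were higher in every Ti+I-OG library, against 7.75% of all genes, and Cxcr2 and Ccl9 were lower, against 6.71% of all genes. Fold changes were positive for 21 of the 47 (44.7%, against 49.6% of all genes).

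Cxcr2, at 178 to 192 CPM in Ti+I-OG and 215 to 268 CPM in Ti libraries, differed by -0.42 on the log2 scale in Ti+I-OG vs Ti (SE 0.14, unadjusted p = 0.0118, adjusted p = 0.628). Cxcr1 differed by -1.34 (SE 0.52, adjusted p = 0.628), with the groups overlapping. Cx3cl1, the membrane-bound ligand of Cx3cr1 on endothelium and neurons, measured 4.41, 4.40 and 4.76 CPM in Ti+I-OG, 2.502, 2.557 and 3.576 CPM in Ti and 2.35, 3.13 and 1.93 CPM in naive libraries. Every Ti+I-OG library was above every other one in Cx3cl1, without passing (log2 fold change 0.65, SE 0.27, adjusted p = 0.630). For the members that had changed with particles, the intervals of the hydrogel's difference were wide. That of Ccl21a ran from -0.94 to 0.40 around a log2 fold change of -0.27, that of Ackr3 from -0.98 to 0.23 around -0.37, and that of Ackr4 from -0.71 to 0.35 around -0.18. That of Ccl21b ran from -1.67 to 1.70 around 0.02, and that of Cx3cr1 from -0.51 to 0.26 around -0.12. The intervals of these 5 members, which were higher in Ti than in naive libraries, reach both below and above 0. That of Cxcr2, which was lower in Ti than in naive libraries, ran from -0.73 to -0.11, farther from naive, but the difference did not pass (adjusted p = 0.628).

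Ccrl2, which holds the attractant chemerin on the cell surface, measured 17.2, 17.2 and 14.0 CPM in Ti+I-OG, 12.2, 10.5 and 12.2 CPM in Ti and 8.62, 15.9 and 8.63 CPM in naive libraries. It was higher in every Ti+I-OG than in every Ti library, without passing (log2 fold change 0.48, SE 0.23, adjusted p = 0.644). Xcr1, the receptor of cross-presenting dendritic cells for Xcl1, measured 0.793, 0.549 and 1.303 CPM in Ti+I-OG, 0.519, 0.536 and 0.343 CPM in Ti and 0.456, 0.280 and 0.0419 CPM in naive libraries. Its ranges were also separate, at under 2 CPM, and it did not pass either (log2 fold change 0.91, SE 0.62, adjusted p = 0.708). The summed CPM of dendritic cell markers, Xcr1 itself among them, was 392 to 498 in Ti+I-OG and 293 to 366 in Ti libraries. The part of these cells in Xcr1 was not tested.

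The third comparison set the hydrogel-treated tibiae against untreated ones; it shares its libraries with the other comparisons. Of 47 members, 7 passed (14.9%, against 8.26% of all genes): Ccl21a, Ccl21b, Ccl8 and Ackr3 rose, 4 members against 3.84% of all genes, and Cxcr2, Cxcr1 and Ccr1 fell, 3 members against 4.43% of all genes. With the replicate numbers as a block, which the libraries of these groups allow, 12 members passed, the same 7 and Ackr4, Ccl11, Ccl6, Cx3cl1 and Cx3cr1, when 24.3% of all genes did. Separate ranges were seen for 13 members (27.7%, against 35.5% of all genes), 10 higher (18.7% of all genes were) and 3 lower (16.9% of all genes were). Fold changes were positive for 34 of the 47 (72.3%, against 52.7% of all genes). An unadjusted p under 0.05 was reached by 17 (36.2%, against 29.8% of all genes). Again 15 of 16 CC ligands had positive fold changes, with a median of 0.67, against 0.03 over all genes; with the length offset it was 0.46, with 11 of 16 positive. Leaving out naive replicate 3 left 2 calls, Ccl21a and Cxcr2, when 1.19% of all genes were called. With the Ccl21 copies summed, 6 of 46 members passed, 3 higher and 3 lower, against 8.24% of all genes.

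Cxcr2 fell by 0.96 on the log2 scale in Ti+I-OG vs naive (SE 0.14, adjusted p = 0.00732), to 0.515 of the naive level, and passed in all 14 other settings and without each of the 6 libraries in turn (adjusted p up to 0.0423). Ccl21a rose by 2.89 (SE 0.35, adjusted p = 0.00270) and also passed in each of these fits. Cxcr1 fell by 2.29 (SE 0.51, adjusted p = 0.0288) and Ccr1 by 0.61 (SE 0.14, adjusted p = 0.0306), and Ackr3 rose by 1.23 (SE 0.29, adjusted p = 0.0315). These 3 calls were lost when naive replicate 1 or 3, or any 1 Ti+I-OG library, was left out, and that of Ackr3 also in a fit of these groups alone. Without naive replicate 3 the adjusted p was 0.0773 for Cxcr1, 0.0865 for Ccr1 and 0.0910 for Ackr3. Ccl21b rose by 3.64 (SE 0.97, adjusted p = 0.0438), a call lost without the same libraries, in 3 of 13 other settings, and at an adjusted p of 0.133 without naive replicate 3.

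Ccl8, a ligand of Ccr8 in the mouse that also attracts monocytes and eosinophils, passed in this comparison. It measured 9.07, 3.78 and 2.78 CPM in Ti+I-OG, 2.12, 3.75 and 2.55 CPM in Ti and 1.18, 1.45 and 1.76 CPM in naive libraries. Ti+I-OG replicate 1 was far above the other libraries, and the group overlapped with Ti. Its log2 fold change in Ti+I-OG vs naive was 1.84 (SE 0.44, adjusted p = 0.0326), and it was lost in limma-voom, with the length offset with or without the block, and when naive replicate 1 or 3, or Ti+I-OG replicate 1 or 2, was left out. Leaving out Ti+I-OG replicate 1 gave the lowest log2 fold change, 1.16 (adjusted p = 0.107). Its difference between Ti+I-OG and Ti did not pass (0.89, SE 0.42, adjusted p = 0.632). Ccr8 was among the untested members.

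Lymphocyte receptors passed in no comparison. Cxcr5, which takes B cells into follicles, measured 7.09, 8.45 and 10.1 CPM in Ti+I-OG, 10.9, 9.57 and 9.21 CPM in Ti and 4.94, 11.6 and 3.85 CPM in naive libraries, and the groups overlapped. Cxcr3, the receptor of activated T cells for Cxcl9 and Cxcl10, measured 4.61, 3.85 and 3.91 CPM in Ti+I-OG, 3.97, 4.50 and 3.58 CPM in Ti and 4.25, 4.95 and 4.32 CPM in naive libraries, again with overlap. Its ligand Cxcl9 measured 24.8, 14.0 and 18.8 CPM in Ti+I-OG, 13.5, 18.6 and 11.2 CPM in Ti and 13.2, 15.1 and 10.5 CPM in naive libraries, and did not pass in Ti+I-OG vs naive (log2 fold change 0.58, SE 0.25, adjusted p = 0.140). The macrophage ligands Ccl3 and Ccl4 had log2 fold changes of 0.76 (SE 0.38) and 0.86 (SE 0.40) in Ti vs naive without passing.

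Genes around the family gave the following counts. Of 41 genes that carry the signal of chemokine receptors, 1 fell in Ti vs naive, against 2.39% of all genes, and none rose. It was Pik3r5, a regulatory subunit of the leukocyte PI3-kinase (log2 fold change -0.74, SE 0.16, adjusted p = 0.0242). Its values were 35.9, 41.0 and 44.0 CPM in Ti and 59.7, 58.3 and 84.5 CPM in naive libraries. The list's median log2 fold change in Ti vs naive was -0.29, with 8 of 41 positive, against 0.01 over all genes tested. In Ti+I-OG vs naive 5 of the 41 fell, Pik3r5, Plcb2, Vav1, Stat3 and Gng12, against 4.43% of all genes, and none rose. The list's median log2 fold change there was -0.38, with 4 of 41 positive, against 0.03 over all genes tested. Its sums were 6878 to 7098 CPM in Ti+I-OG, 6805 to 7935 CPM in Ti and 7566 to 9270 CPM in naive libraries. Of 11 chemokine-like genes outside the naming rule, 1 rose in both comparisons with naive, where 4.05% and 3.84% of all genes rose. It was Rarres2, which encodes the macrophage attractant chemerin. Its log2 fold change was 1.01 in Ti vs naive (SE 0.27, adjusted p = 0.0482) and 1.29 in Ti+I-OG vs naive (SE 0.27, adjusted p = 0.0257). The platelet chemokine Pf4 did not pass in either.

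Other leukocyte attractants and their receptors were read beside these. Of 17 such genes tested, 1 rose in Ti vs naive, against 4.05% of all genes, and none fell. It was C3ar1, the receptor of complement C3a (log2 fold change 1.38, SE 0.26, adjusted p = 0.0167). Its values were 16.6, 22.1 and 11.0 CPM in Ti and 5.32, 8.50 and 5.32 CPM in naive libraries. In Ti+I-OG vs naive none rose and 2 fell, against 4.43% of all genes. C5ar1, the neutrophil receptor of C5a, fell by 0.70 on the log2 scale (SE 0.18, adjusted p = 0.0415) and Csf3r by 0.61 (SE 0.15, adjusted p = 0.0345). In that comparison the neutrophil marker sums, 31420 to 45950 CPM in Ti+I-OG, overlapped the naive ones. Csf3r was the 1 marker of 16 that passed, against 8.26% of all genes, but most of the others also had negative fold changes. The median log2 fold change of the 16 was -0.39, with 3 positive, against 0.03 over all genes. In Ti+I-OG vs Ti, none of the 4 lists held a gene that passed, with medians of -0.15 to 0.08, against -0.003 over all genes.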

How the data were processed

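Polyadenylated tibia RNA was turned into 9 libraries with NEBNext Ultra, a kit that does not mark strand, for Illumina sequencing (per the labels' protocols). The authors deposited estimated counts, which need not be whole, and FPKM for 22183 genes; per the submitters' processing notes, fastp, StringTie 1.3.1, RSEM, DESeq2 and edgeR were used. The aligner, build and annotation were not given in the sources used here. Counts were rounded. The 14211 genes kept by filterByExpr were tested in a fit of all 9 libraries (edgeR 4.0.16, R 4.3.3, TMM, quasi-likelihood test, 6 residual degrees of freedom, two-sided), with Benjamini-Hochberg adjustment over all of them and a threshold of 0.05; 4425 genes had no count. Intervals are 95%. Replicates differed by chi-square per degree of freedom of 13.1 to 136, beyond counting noise. A floor of 3 counts is 0.121 to 0.184 CPM per library; floors cover counting error only. DESeq2 1.42.0 and limma 3.58.1 (pseudocounts of 1 and 0.1 for FPKM) were alternatives, with other scalings and filters, a replicate block, an offset for the trend on transcript length and leaving out each library.

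Members and lists were chosen with earlier results of these data known. Named members were those that passed, the 6 ligands and 6 receptors with the highest FPKM, and those with the smallest p, 20 in all; partners of called members were added. Libraries with the same replicate number deviated together in Ti+I-OG vs naive (correlations 0.197, 0.115 and 0.273, all above 0.1), so the block was read beside that comparison. Overlaps and near-identical copies (blastn 2.17.0, at least 95% identity over 50% of a transcript) came from GENCODE release 21, and promoters from RefSeq. The fit was tested on simulated counts with independent noise. These held no length trend or shared replicate deviation, so the test does not show error rates in the real data. A member that is not reported here by name stays in the counts over members.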

Additional observations from a re-analysis of the deposited data

How the results depend on the processing

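In Ti vs naive 6 members passed in the main edgeR fit, when 6.43% of all genes were called. Other settings gave 2 (only the groups compared, with 2.53% of all genes called) and 3 (length offset, 6.49%). The rest lay from 5 to 9, with 8 under the replicate block (20.9%) and 9 in DESeq2 (13.1%). Leaving out a library gave 1 to 7 calls, and the share of all genes called moved too. There was 1 call without Ti replicate 1 or 2 (0.704% and 0.732% of all genes). There were 2 without naive replicate 3 (1.56%), 3 without naive replicate 1 (2.98%) and 7 without naive replicate 2 or Ti replicate 3 (10.2% and 14.1%). In Ti+I-OG vs naive, where 7 passed, DESeq2 gave 11 (17.2% of all genes called, against 8.26% in edgeR) and the replicate block 12 (24.3%). The length offset and limma-voom gave 5 each (2.99% and 6.57% of all genes), and the rest lay from 6 to 8. Leaving out a library gave 2 to 13, with 13 without naive replicate 2 (with 2127 of 14211 genes called). There were 3 without naive replicate 1 or Ti+I-OG replicate 3 (2.64% and 2.91% of all genes). There were 2 without each of the other 3 in turn (0.415% to 1.19% of all genes). In Ti+I-OG vs Ti no setting called a member, and the replicate block gave 0. Same-numbered libraries correlated at -0.024, 0.333 and 0.239 in Ti vs naive, and at 0.074, 0.203 and 0.22 in Ti+I-OG vs Ti. The first value of each lay under 0.1, which does not settle whether the number marks a pairing there. The cause of these moves was not tested, except that fewer libraries enter some fits. Of all named members' values, none turned round with a call, 64 lost and 27 gained a call, and 1103 did neither. Depth limits the members under about 1 CPM.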
